A study of Mus musculus with 87 samples.

Results

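DUX and OBOX4 are homeodomain transcription factors that the mouse embryo makes around the time when its own genome is first switched on. The 320 genomic sites described here held peaks of both, profiled in separate libraries of mouse embryonic stem cells (mESCs). These sites are called co-bound for the overlap of their peaks, and binding of both proteins in the same cell was not tested. They were chosen by peak position, as the peaks of the FLAG-DUX library on chromosomes 1 to 19, X and Y that shared at least 1 base with a merged FLAG-OBOX4 interval held by at least 2 of 3 replicates, and that touched no copy of MT2_Mm, the long terminal repeat (LTR) of the retrovirus MERVL. They made up 320 of 1802 DUX peaks, and the OBOX4 side held 20997 such intervals. Another 75 DUX peaks met OBOX4 on MT2_Mm and were set aside by the rule. Since the members were selected on the peaks of both proteins, the enrichments of both proteins are given as a description, with no test. Repeats at the sites, their sequence, histone marks and RNA were not used in the choice.

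The binding lists came from CUT&RUN, in which an antibody-tethered nuclease releases the DNA around a bound protein. Both proteins carried a triple FLAG tag, were expressed from doxycycline-inducible transgenes in EB3 mESCs (a 129/Ola line) and were profiled with the same FLAG antibody. OBOX4 had 3 replicate lists and DUX had 1, so DUX binding had no replicate check. FLAG profiles of cells without a transgene and IgG profiles were not used here, and the share of the sites that the antibody alone would give was not tested. Histone marks came from WT and Obox4 KO mESCs, each untreated or treated with pladienolide B (PlaB), a splicing inhibitor that moves mESCs towards a totipotent-like state, with 3 libraries per mark, genotype and treatment. RNA was measured in mESCs at 0, 12 and 48 h of doxycycline induction of Obox4 (3 libraries each) and in mESCs treated with PlaB, either WT or labelled Obox4 KO, Dux KO or double KO, with 3 libraries each. The Obox4 KO allele removes the clustered Obox4 copies, and copies outside the cluster were kept. It was also measured in B6D2F1 2-cell (2C) embryos injected with antisense oligonucleotides (2 libraries per group of 30 embryos each) and in morulae (scramble and double KD, 2 per group). The knockout lines were grown from single cells, so a line and its genotype cannot be told apart. The oligonucleotide dose was 20 µM for the single knockdowns and 40 µM for the scramble control, the double knockdown (KD) and the double KD that also received Obox4 mRNA at 100 ng/µL. The scramble groups and the PlaB-treated WT cells each served as the control of several comparisons.

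The targeted genes followed the labels in some groups only. Summed over 39 Obox4 copies of the gene table, from which reads with several mapping places had been discarded, Obox4 rose from 0.385–0.611 CPM (counts scaled to a common library total) at 0 h to 7.08–8.51 at 48 h. Duxf3, the Dux gene of the table, was at 0 in Dux KO and double KO cells. In PlaB-treated cells Obox4 was at 17, 15.6 and 15.6 CPM in WT and at 4.68, 3.65 and 11.9 in Obox4 KO, lower in each library but not absent, and replicate 3 stood closest to WT. It was at 0.116 to 0.13 CPM in Dux KO and 0 to 0.192 in double KO, so Dux KO cells, which carry Obox4, held less of its RNA than Obox4 KO cells. The 2 libraries of embryos labelled Obox4 KD held 68 and 83.5 CPM of Obox4 against 68.4 and 76 in scramble embryos. A lower count of uniquely mapped Obox4 reads was thus not seen in them. The study presents Obox4 RNA levels and OBOX4 staining per nucleus for its knockdown embryos, and the staining was not examined here. Obox4 was at 44.1 and 41.7 CPM in double KD and at 31.4 and 38.5 in the embryos that also received Obox4 mRNA. The injected mRNA was codon-optimized, so its reads need not be counted on the genomic copies and these values do not check it. Duxf3 was at 6.49 and 7.68 CPM in scramble, 3.66 and 1.93 in Dux KD and 3.86 and 2.92 in double KD. With Obox4 mRNA it was at 8.16 and 5.78, which overlapped scramble, and the part of this in the comparisons with that group was not tested. In the morulae labelled double KD, Obox4 was at 3.74 and 7.93 CPM and was higher than in scramble morulae (0.321 and 0.351). Gene counts per library ran from 14283083 to 104864947. In PlaB-treated cells, 7 mESC markers summed to between 2.15e+03 and 2.53e+03 CPM in the double KO libraries to between 3.54e+03 and 3.56e+03 in Dux KO, to between 2.79e+03 and 3.03e+03 in Obox4 KO, and to between 4.48e+03 and 4.54e+03 in WT. The 6 morula and trophectoderm markers ran the other way, at 2.93e+03 to 3.69e+03 in double KO, 442 to 454 in Dux KO, 544 to 1.77e+03 in Obox4 KO and 160 to 171 in WT. The part of these shifts in the gene results was not tested.

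At the 2C stage the embryo transcribes a burst of genes and retroviral repeats that later stages silence, among them Zscan4, Dppa2, Zfp352 and MERVL. DUX is known to bind the MERVL LTR and 2C genes and to switch them on, while Obox genes are a family of homeobox genes active in the oocyte and early embryo. H3K4me3 marks active gene starts, H3K27ac marks active gene starts and enhancers, and H3K27me3 is laid down by Polycomb at silent genes. L1Md_A is a young mouse LINE-1 retrotransposon whose promoter lies at its 5′ end, and GSAT_MM is the major satellite, the tandem repeat of mouse pericentromeres.

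The sequences under the sites differed in kind, and 3 sets show this. The first set gives the plus strand of GRCm38.p6 from 100 bases before to 100 bases after the DUX summit at 4 sites whose nearest genes were called in the most comparisons. Capitals mark the base of the DUX summit, except at the Gm2016 site, where they mark a match to the OBOX4 core. The core searched was the 8 letters GGGAT followed by C or T, then A or T, then A or G, on both strands. The Gm5662 and Gm21818 sites lie on LTRs (MTE2a and MT2B1), the Gm2016 site on the internal part of another (ORR1A2-int), and the Gm10800 site on GSAT_MM.
Gm5662 site, chr12:88274486-88274686: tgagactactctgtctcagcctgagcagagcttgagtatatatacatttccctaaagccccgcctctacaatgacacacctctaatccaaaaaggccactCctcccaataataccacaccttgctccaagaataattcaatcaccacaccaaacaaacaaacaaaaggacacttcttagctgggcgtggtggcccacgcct
Gm2016 site, chr12:87870815-87871015: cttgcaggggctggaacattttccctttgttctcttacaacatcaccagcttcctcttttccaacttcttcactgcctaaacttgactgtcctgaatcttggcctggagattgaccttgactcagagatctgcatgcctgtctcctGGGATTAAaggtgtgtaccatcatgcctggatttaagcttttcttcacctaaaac
Gm21818 site, chr13:120172267-120172467: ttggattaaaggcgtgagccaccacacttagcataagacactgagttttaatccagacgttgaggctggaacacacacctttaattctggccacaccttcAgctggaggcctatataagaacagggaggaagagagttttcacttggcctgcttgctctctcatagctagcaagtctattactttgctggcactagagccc
Gm10800 site, chr2:98667057-98667257: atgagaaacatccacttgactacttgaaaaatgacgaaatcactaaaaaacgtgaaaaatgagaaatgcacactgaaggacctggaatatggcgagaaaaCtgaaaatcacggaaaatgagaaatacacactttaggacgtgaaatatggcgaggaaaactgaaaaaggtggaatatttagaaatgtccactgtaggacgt
The second set gives the DUX summits of 2 L1Md_A copies, picked after the values were seen as those with high DUX enrichment. Capitals again mark the summit base. One copy runs along the plus strand and the other along the minus strand. The first copy is 6200 bases long, with the summit 330 bases from its 5′ end. The second is annotated at only 1677 bases, with the summit 1644 bases from its 5′ end, so its window runs past the other end of the copy.
L1Md_A site 1, chr1:121203869-121204069: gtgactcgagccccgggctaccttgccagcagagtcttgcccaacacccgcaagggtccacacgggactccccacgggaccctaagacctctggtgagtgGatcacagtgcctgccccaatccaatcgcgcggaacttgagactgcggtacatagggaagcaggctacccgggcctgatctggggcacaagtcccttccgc
L1Md_A site 2, chr2:22005582-22005782: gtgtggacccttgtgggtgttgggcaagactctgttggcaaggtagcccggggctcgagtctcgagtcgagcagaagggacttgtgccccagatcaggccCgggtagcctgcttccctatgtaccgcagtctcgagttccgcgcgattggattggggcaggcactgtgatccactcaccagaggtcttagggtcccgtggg
The third set gives 41 bases around 9 of the 10 sites with a match to GATTNAATC, a 9-letter palindrome of the DUX type that reads the same on both strands, with the match in capitals. These sites were also picked after the values were seen. A match describes the letters only and does not show that a protein was bound through them.
Gm47092 site, chr9:121389468-121389508: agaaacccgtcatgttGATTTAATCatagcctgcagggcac
Gm15962 site, chr19:12731486-12731526: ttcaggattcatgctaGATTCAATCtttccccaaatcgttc
Gm48353 site, chr10:62847163-62847203: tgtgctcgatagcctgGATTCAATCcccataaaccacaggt
Hs2st1 site, chr3:144561505-144561545: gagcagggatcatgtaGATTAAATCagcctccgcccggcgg
0610005C13Rik site, chr7:45579816-45579856: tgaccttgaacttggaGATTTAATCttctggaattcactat
Gm23438 site, chr14:86994696-86994736: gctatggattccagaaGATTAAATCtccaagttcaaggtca
Cybrd1 site, chr2:71140857-71140897: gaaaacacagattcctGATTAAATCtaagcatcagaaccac
2900052L18Rik site, chr11:120231132-120231172: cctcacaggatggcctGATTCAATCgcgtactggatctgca
Gm26703 site, chr5:104109142-104109182: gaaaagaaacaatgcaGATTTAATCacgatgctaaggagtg

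Across the 320 sites, DUX enrichment over local background ran from 1.53 to 30.1 with a median of 7.73, against a median of 8.01 at the 1093 DUX sites without OBOX4. OBOX4 enrichment ran from 1.46 to 155 in replicate 1 (310 sites with a peak, median 5.76), from 1.37 to 158 in replicate 2 (290 sites, median 5.61) and from 1.41 to 123 in replicate 3 (286 sites, median 4.86). Of the sites, 252 overlapped peaks of all 3 OBOX4 lists, 62 of 2 and 6 of 1, the last through an interval merged from neighbouring peaks. The 2 summits lay a median of 86 bases apart, and at 170 sites (53.1%) they were at most 100 bases apart. Strength of DUX went with strength of OBOX4 only weakly across the sites (Spearman rho 0.12, n = 320 sites that share the same libraries). The sites were 176 to 26140 bases wide with a median of 326.5, and 11 were wider than 3000 bases.

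The strongest DUX site lay on chromosome 5 near Gm43031 (chr5:4052254-4054451) with an enrichment of 30.1. The next were near Shcbp1l on chromosome 1 (20.02) and BC147527 on chromosome 13 (18.5). OBOX4 was strongest of the named sites at Gm2016, where its enrichment was 116, 95.1 and 88.8 in the 3 replicates and DUX reached 8.51. At Rimklb (chr6:122491768-122492054, in an intron) OBOX4 reached 28.4, 23.6 and 28.3 and DUX 9.89. The sites nearest to the limits of the rule shared 25 bases (2900052L18Rik), 28 bases (Gm22727) and 33 bases (Gm33466) with an OBOX4 interval. Just outside it were DUX peaks near Mospd4, Vdr and Rtn4rl1, which missed an interval by 32, 33 and 67 bases.

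The sites were bunched along the genome. Runs of at least 5 sites with neighbours at most 1 Mb apart, a definition set after the values were seen, numbered 7 and held 56 sites (17.5%). They lay on chromosome 12 (5 sites, among them Gm2016 and Gm5662), chromosome 13 (10 sites near Zfp640 and Gm10323, and 5 sites near D13Ertd608e, Gm20767, Gm21818 and BC147527), chromosome 4 (9 sites), chromosome 8 (7 sites), X (5 sites) and Y (15 sites). All 15 sites on Y fell within 89.1 kb (chrY:90721910-90811014), most of them nearest to Gm47283, and several shared 1 OBOX4 interval. Such sites are not independent of each other. The runs hold families of similar genes, and the part of reads that map to several copies was not tested.

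Co-bound sites lay on LINE-1 elements more often than either kind of single-bound site. The DUX summit fell on a LINE-1 at 76 of 320 sites (23.8%, 95% Wilson interval 19.4 to 28.7), against 9.33% of DUX sites without OBOX4 and 3.69% of OBOX4 sites without DUX (where the summit is that of OBOX4). LINE-1 elements cover 20.2% of genome bases, so the share of co-bound sites was close to that of the genome and the single-bound sites were below it. LTRs held 19.7% (15.7 to 24.4) of co-bound sites, 22.9% and 22.6% of the single-bound sets, and 11.9% of genome bases. MT2_Mm copies were removed from all 3 sets. At 164 sites (51.2%) the summit was on no repeat. Intervals cover counting error only, sites are not independent samples, and no p-value was computed for these shares.

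Around the DUX summit, the OBOX4 core was about as frequent at co-bound sites as at DUX sites without OBOX4. The DUX palindrome was less frequent at co-bound sites. In windows reaching 100 bases to each side of the summit, 10 co-bound sites (3.12%, 1.71 to 5.66) held GATTNAATC, against 14.9% of DUX sites without OBOX4, 0.181% of OBOX4 sites without DUX and 0.238% of all genome windows of that length. The OBOX4 core was found at 21 co-bound sites (6.56%, 4.33 to 9.82), at 6.5% of DUX sites without OBOX4, at 10.6% of OBOX4 sites without DUX and in 5.9% of genome windows. A single site held both. At co-bound sites the window was centred on the DUX summit, and at OBOX4 sites without DUX on the OBOX4 summit. An OBOX4 summit lay at most 100 bases from the DUX summit at only 170 co-bound sites. The core shares of these 2 sets were thus not measured alike. A gene start (the 5′ end of a gene of the deposited table) lay within 3000 bases of 93 sites (29.1%, 24.4 to 34.3), against 24.3% and 36.5% of the single-bound sets. By annotation, 34 summits were in an exon, 117 in an intron and 169 between genes.

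**Figure D1:**
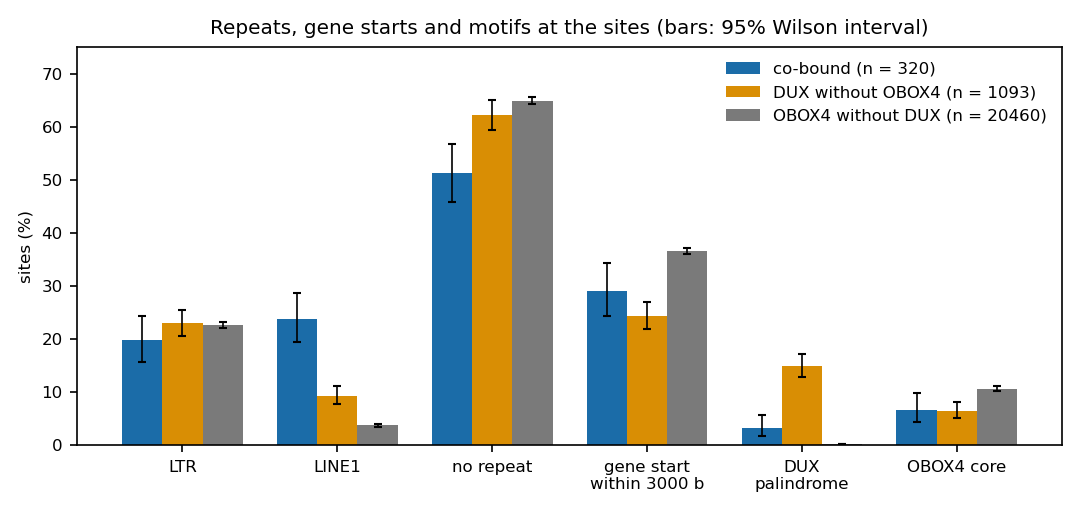
Share of sites (%) whose summit lies on an LTR, a LINE-1 or no repeat, within 3000 bases of a gene start, or in a window with a DUX palindrome or OBOX4 core, for 320 co-bound sites, 1093 DUX sites without OBOX4 and 20460 OBOX4 sites without DUX. The summit is that of DUX, except at OBOX4 sites without DUX, where it is that of OBOX4. Error bars are 95% Wilson intervals, and the co-bound bar stands above both others for LINE-1 (23.8%) and below the DUX bar for the palindrome (3.12% against 14.9%).

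Most of the LINE-1 sites lay on the subfamily L1Md_A. The summit lay on L1Md_A at 60 co-bound sites (18.8%, 14.9 to 23.4) on 58 copies, against 0.366% of DUX sites without OBOX4 and 1.19% of OBOX4 sites without DUX. The copies were long. Of the 60 sites, 46 (76.7%) lay on copies of at least 5000 bases, whereas 19.6% of the 16802 L1Md_A loci of the table reach that length. These sites took up 1.4% of the long copies of the genome. The DUX summit lay 33 to 2392 bases from the 5′ end of the copy, with a median of 724, and 52 of 60 were within 1500 bases. Some copies were shorter than 1500 bases (the shortest 1015), and any summit on them meets that limit. Neither motif was found at any of the 60. The other 16 LINE-1 sites were 8 on L1Md_T, 5 on L1_Mm and 1 each on L1Md_Gf, L1_Mus3 and Lx8. Copies of a young LINE-1 are nearly identical, and how reads with several mapping places were shared among them was not tested.

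**Figure D2:**
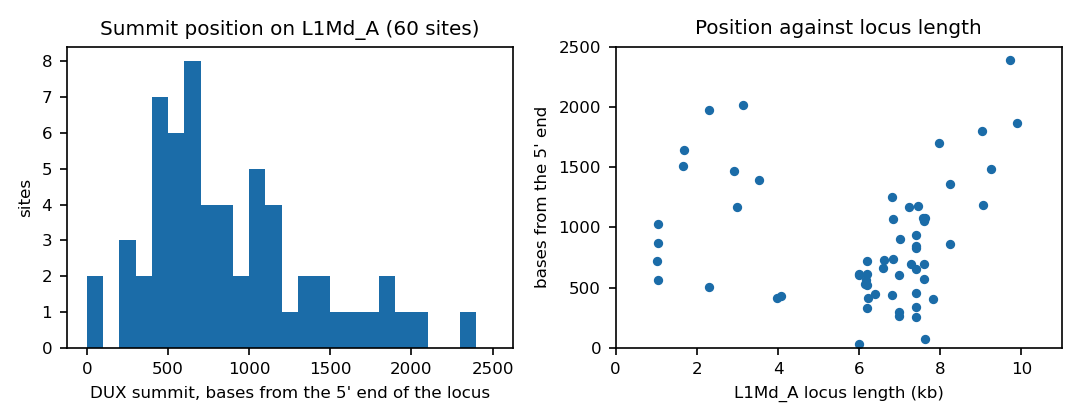
Left, number of co-bound sites on L1Md_A by distance (bases) of the DUX summit from the 5′ end of the copy. Right, that distance against the length of the copy (kb), 1 point per site. The 60 summits lay between 33 and 2392 bases from the 5′ end, with a median of 724.

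Most co-bound sites carried both active marks before any treatment. In untreated WT mESCs, peaks of H3K4me3 covered 234, 235 and 233 of the 320 sites in the 3 libraries, and peaks of H3K27ac covered 220, 243 and 241. H3K27me3 covered 46, 39 and 29. Counting sites marked in 3 of 3 libraries, H3K4me3 was found at 71.2% (66.1 to 75.9) of co-bound sites, 13.1% of DUX sites without OBOX4 and 64.4% of OBOX4 sites without DUX. The figures for H3K27ac were 65.9%, 8.14% and 58.3%, and for H3K27me3 7.81%, 9.88% and 2.36%. With respect to active marks the co-bound sites thus stood close to the OBOX4 sites and far above the DUX sites. Both active marks in 3 of 3 libraries each were found at 188 sites, all 3 marks at 11, and 12 sites had no peak in any of the 36 lists.

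The marks differed between kinds of site. All 60 sites on L1Md_A lay under H3K4me3 peaks in each of the 12 libraries and 58 to 60 under H3K27ac. Among the 164 sites on no repeat, 119 had H3K4me3 and 97 had H3K27ac in 3 of 3 untreated WT libraries. Of the 63 sites on LTRs, 32 had H3K4me3 and 37 H3K27ac. Of the sites described below by their genes, those near Gm5662, Gm2016, Gm21818, Gm20767 and BC147527 had no H3K4me3 peak in any untreated WT library. The BC147527 site had H3K27me3 in 2 of 3 untreated WT libraries. The Lama1 and Rimklb sites had H3K4me3 in 3 of 3 libraries of each condition.

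H3K27me3 over the L1Md_A sites was more widespread in untreated Obox4 KO than in untreated WT cells. It covered 26, 20 and 14 of the 60 sites in the untreated WT libraries and 35, 51 and 51 in the untreated Obox4 KO libraries, and the groups did not overlap. With 3 libraries against 3, the smallest p an exact permutation test can give is 0.10, and none was computed. With PlaB the counts were 42, 16 and 8 in WT and 41, 31 and 48 in KO, and these groups overlapped. The other 260 sites moved less, with 20, 19 and 15 in untreated WT and 25, 25 and 26 in untreated KO. The same shift was present over the 259 OBOX4 sites without DUX on L1Md_A (62, 44 and 25 against 82, 120 and 136). The H3K27me3 lists of the untreated KO cells were also larger, covering 123, 127 and 117 Mb against 104, 103 and 96.6 Mb in WT, and the part of list size in this result was not tested.

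**Figure D3:**
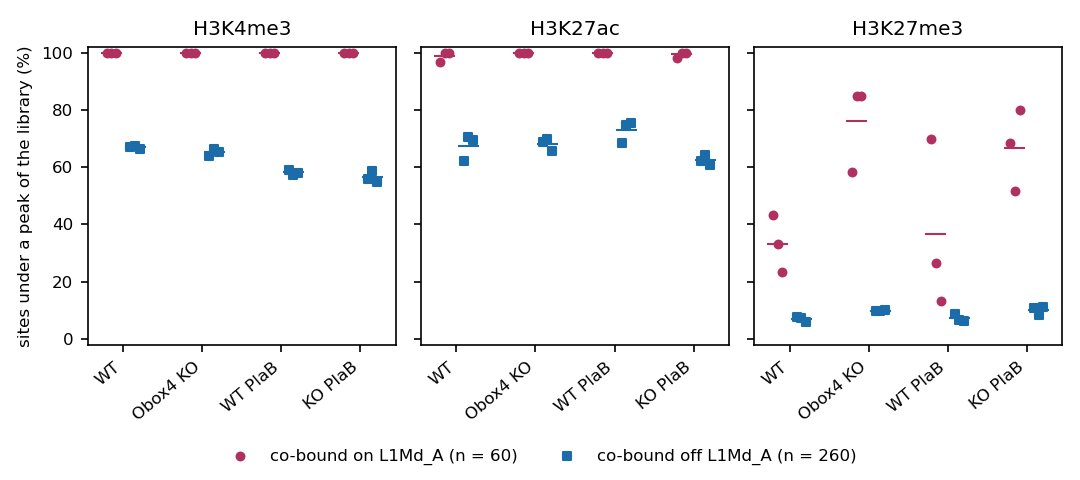
Share of co-bound sites (%) under a peak of each library, for 60 sites on L1Md_A (circles) and 260 sites elsewhere (squares), by mark and condition (WT and Obox4 KO mESCs, untreated or with PlaB). Points are the 3 libraries of a condition and lines their mean. H3K4me3 is at 100% over L1Md_A in every library, and the H3K27me3 points of untreated KO lie above those of untreated WT.

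Single sites rarely changed a mark fully, meaning from 0 of 3 to 3 of 3 libraries (gained) or the reverse (lost). Beside each count of the 320 sites stands the share of all 20997 OBOX4 intervals that changed in the same way. In untreated Obox4 KO against WT cells, H3K4me3 was gained at 5 sites (background 0.557%) and lost at 4 (3.02%), H3K27ac was gained at 6 (2.53%) and lost at 3 (0.548%), and H3K27me3 was gained at 14 (1.36%) and lost at 1 (0.129%). As shares of the 320 sites these are 1.56%, 1.25%, 1.88%, 0.938%, 4.38% and 0.312%. For DUX sites without OBOX4 they were, in the same order, 0.183%, 2.2%, 0.183%, 0.274%, 2.01% and 0.915%. Under PlaB, KO against WT, H3K4me3 was gained at 4 (1.74%) and lost at 6 (0.743%), H3K27ac was gained at 1 (2.7%) and lost at 14 (1.3%), and H3K27me3 was gained at 8 (1.05%) and lost at 0 (0.0572%). These were 1.25%, 1.88%, 0.312%, 4.38%, 2.5% and 0% of the 320 sites. Of DUX sites without OBOX4 they were 0.366%, 2.01%, 0.549%, 6.95%, 1.19% and 0.183%. PlaB itself, in WT cells, was accompanied by H3K4me3 gained at 4 (0.0429%) and lost at 14 (10.5%), H3K27ac gained at 8 (0.448%) and lost at 2 (2.19%), and H3K27me3 gained at 0 (0.152%) and lost at 0 (0.124%). These were 1.25%, 4.38%, 2.5%, 0.625%, 0% and 0% of the 320 sites. Of DUX sites without OBOX4 they were 1.28%, 1.92%, 5.86%, 0.274%, 0.732% and 0.823%. The H3K27ac gains included GSAT_MM sites, near Gm10718, Gm10722, Gm11168 and Gm21738. H3K4me3 was thus lost on PlaB treatment at 4.38% of co-bound sites.

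Changes were found at several sites named above. The Gm5662 site had no H3K4me3 and no H3K27ac in untreated WT cells and both in 3 of 3 libraries of PlaB-treated WT cells. In PlaB-treated Obox4 KO cells it had H3K4me3 in 0 of 3 and H3K27ac in 2 of 3 libraries. The strongest DUX site, near Gm43031, gained H3K27ac in PlaB-treated WT cells. A site near Gm48561, on chromosome 12 some kilobases from Gm5662, and a site near Gm48923 on chromosome 15 lost H3K27ac in PlaB-treated Obox4 KO cells. The Gm21818 site and the site at the start of Tnfrsf19, a TNF receptor family gene, gained H3K27me3 in the same comparison. On chromosome Y, the Gm47283 site lost H3K4me3 in PlaB-treated WT cells and had it in 3 of 3 PlaB-treated KO libraries.

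A small group of 6 sites lay on the major satellite GSAT_MM, at 3 places on chromosomes 2, 9 and 14. These places include the widest site (chr9:3012128-3038267). OBOX4 enrichment over them was low, at 1.65 to 3.26, and DUX enrichment ran from 1.53 to 10.2. H3K27ac covered 1, 1 and 1 of the 6 in untreated WT cells, 0, 0 and 0 in untreated Obox4 KO cells, 6, 5 and 6 in PlaB-treated WT cells and 1, 1 and 1 in PlaB-treated KO cells. Reads of a tandem repeat cannot be placed on 1 copy, and the number of assembled copies that stand for the genomic array was not tested.

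RNA of the satellite was lower in all 3 knockouts and in double KD 2C embryos. In the repeat table, whose reads with several mapping places were shared among them as fractions, GSAT_MM stood at 978, 969 and 1.05e+03 CPM in the PlaB-treated WT libraries. It stood at 258, 246 and 562 in Obox4 KO, at 131, 141 and 154 in Dux KO and at 233, 229 and 210 in double KO, all below WT. The log2 fold change was -1.50 ± 0.251 (SE) in Obox4 KO, -2.81 ± 0.263 in Dux KO and -2.15 ± 0.261 in double KO, with adjusted p = 0.00405, 2.85e-05 and 0.000215 (edgeR's quasi-likelihood test over all repeats, Benjamini-Hochberg). In 2C embryos GSAT_MM was at 5.8e+03 and 4.73e+03 CPM with the scramble oligonucleotide and at 2e+03 and 2.04e+03 in double KD (log2 fold change -1.38 ± 0.294, adjusted p = 0.00581 by the same test). Obox4 mRNA gave 2.48e+03 and 5.94e+03, a spread that overlapped scramble, and the difference from double KD was not called (adjusted p = 0.0372 by the same test). The single knockdowns were not called either, with log2 fold changes of -0.96 in the embryos labelled Obox4 KD (3.22e+03 and 2.19e+03 CPM, adjusted p = 0.128, edgeR) and -1.22 in Dux KD (2.46e+03 and 2.06e+03 CPM, adjusted p = 0.0219, edgeR). In double KD morulae it stood the other way, at 736 and 2.92e+03 CPM against 277 and 346 in scramble (log2 fold change 2.55 ± 0.668, adjusted p = 0.249, edgeR). The double KD call was lost with DESeq2, with replicate number as a block and without any 1 of its 4 libraries, and the Obox4 KO call was lost in 5 of 6 fits without 1 library. L1Md_A RNA passed the test in none of the 12 comparisons. It ran at 3.26e+04, 3.29e+04 and 3.17e+04 CPM in PlaB-treated WT and 4.07e+04, 4.59e+04 and 4.32e+04 in double KO (log2 fold change 0.42 ± 0.217, adjusted p = 0.183, edgeR). Of the 6 other repeats with the most sites that were tested, L1_Mm was called lower with Obox4 mRNA against double KD (log2 fold change -1.59), and MT2B, RLTR17, L1Md_T, B1_Mus2 and ID_B1 were called in no comparison. These repeat results depended on the scaling. Scaled by the gene table, the median of all repeats shifted by -0.91 in double KO, -0.33 in Dux KO, -0.35 in Obox4 KO, -0.14 in the embryos labelled Obox4 KD and 0.19 in morulae, and by at most 0.15 in size elsewhere except -0.59 in double KO against Dux KO. Under that scaling GSAT_MM passed as lower in the embryos labelled Obox4 KD (-1.09, adjusted p = 0.000496), in Dux KD (-1.17, adjusted p = 7.29e-05) and, as higher, in morulae (2.96, adjusted p = 0.000454), all by edgeR. MT2B then passed as lower in Dux KO (-1.12) and double KO (-1.63), and L1_Mm in double KO (-1.60). The double KO differences of L1Md_A (-0.51), L1Md_T (0.72 to -0.24) and ID_B1 (0.41 to -0.53) changed sign.

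The nearest gene within 50 kb of each site gave 249 genes, referred to here as the genes of the sites. Gene starts lay 9 to 369794 bases from the summit with a median of 10064, and 49 sites had none within 50 kb. A gene was called when its adjusted p was at most 0.01 and its fold at least a doubling or halving (log2 of 1), by edgeR's quasi-likelihood test on counts over all genes that passed the expression filter. Between 144 and 166 of the 249 genes passed that filter in an experiment, and the shares refer to those. In the shares called for genes of DUX sites without OBOX4, genes that were also genes of co-bound sites, such as Gm2016 and Gm20767, were left out. Genes of a run were counted as separate genes although their sites are not independent. Bulk RNA cannot tell fewer cells of a type from less RNA per cell.

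Induction of Obox4 raised few of these genes. At 12 h, 4 of 146 (2.74%) were higher against 0.612% of all genes, and 0 were lower against 0.145%. At 48 h, 9 of 146 (6.16%) were higher against 3.37% of all genes and 12.7% of the genes of DUX sites without OBOX4, and 0 were lower against 0.574%. Of these 9, 2 were in the chromosome 12 run and 4 in the chromosome 13 run of 5 sites. Of the 4 at 12 h, these runs held 2 and 1. The median log2 fold change of the genes was 0.01 at 48 h, against -0.01 over all genes. The genes that rose included Gm5662, Gm2016, Gm21818, Gm20767, BC147527, D13Ertd608e, Gm33466 and Rimklb, of which 3 (Gm5662, Gm2016 and Gm20767) belong to a list of 2C genes. The 12 h count was 1 with replicate number as a block and without 0 h or 12 h replicate 2 or 3. The 48 h calls of D13Ertd608e and Gm33466 were lost in each fit without 1 library.

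In 2C embryos the counts were larger where Dux was knocked down. The embryos labelled Obox4 KD had 0 genes higher (0.23% of all genes) and 2 lower (1.39% against 0.182%), Lama1 and Gm21738. No lower call was left there without Obox4 KD replicate 2 (0 higher, 0 lower) or scramble replicate 1 (1 higher, 0 lower). Dux KD had 5 higher (3.47% against 3.25%) and 9 lower (6.25% against 1.05%). Double KD had 15 higher (10.4% against 8.42%) and 18 lower (12.5% against 3.16%). Against Dux KD, double KD had 1 higher (0.694% against 0.377%) and 3 lower (2.08% against 0.377%). Adding Obox4 mRNA to double KD gave 6 higher (4.17% against 1.1%) and 10 lower (6.94% against 3.27%), in embryos whose Duxf3 level overlapped scramble. That balance rested on single libraries, with 13 higher and 8 lower without mRNA replicate 1, 1 higher and 9 lower without mRNA replicate 2, and 3 higher and 6 lower without double KD replicate 1. Genes of DUX sites without OBOX4 were lower at 9.85% in Dux KD and 13.1% in double KD. The Dux KD count of 14 was 6 without Dux KD replicate 1, 8 without Dux KD replicate 2, 4 without scramble replicate 1 and 8 without scramble replicate 2.

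In PlaB-treated mESCs most genes of co-bound sites were not called, and those called were more often lower than higher. Obox4 KO had 3 higher (1.81% against 4.92% of all genes) and 22 lower (13.3% against 3.96%). Dux KO had 1 higher (0.602% against 1.62%) and 26 lower (15.7% against 4.7%). Double KO had 7 higher (4.22% against 9.25%) and 48 lower (28.9% against 8.79%). Of these 48, 7 were in the chromosome 4 run, 3 in the chromosome 12 run and 1 in the X run. The chromosome 13 runs of 5 and 10 sites held 4 and 2 of them. Double KO against Dux KO had 7 higher (4.22% against 5.07%) and 12 lower (7.23% against 2%). For genes of DUX sites without OBOX4, the lower shares were 11.3%, 23.8%, 28.8% and 3.4% in the same order. The median log2 fold change of the genes was -0.33 in Obox4 KO, -0.16 in Dux KO and -0.45 in double KO, against 0.02, 0.00 and -0.06 over all genes. The Obox4 KO count of 25 fell to 15 without Obox4 KO replicate 1 or 2 or WT replicate 1 or 3 and to 16 without WT replicate 2, and rose to 34 without Obox4 KO replicate 3, the library with the most Obox4 RNA of its group, whose values stood apart for several genes below. The count of 19 for double KO against Dux KO fell to 10 without any 1 Dux KO library, and its balance turned, with 6 higher and 4 lower (2.31% lower against 0.692 to 0.731% of all genes in those fits). In morulae 0 genes were higher and 0 lower (0% and 0% of all genes), 29 genes of the sites had an unadjusted p under 0.05, and DESeq2 called 5. The 2 double KD morula libraries differed from each other, at 4.1 and 227 CPM for summed 2C markers.

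**Figure D4:**
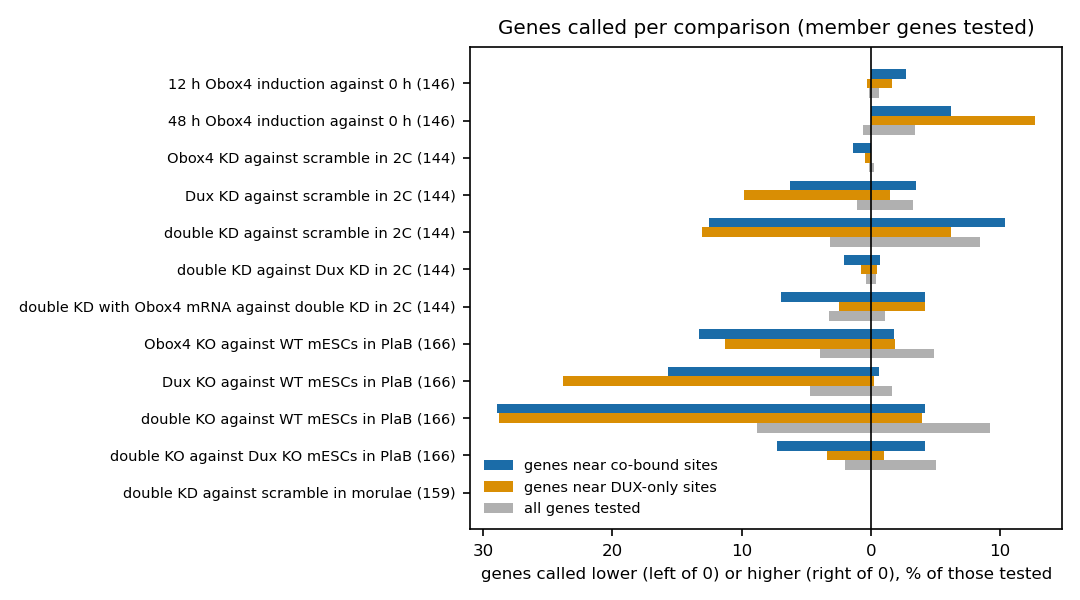
Share (%) of tested genes called lower (left of 0) or higher (right of 0) in 12 comparisons, for genes nearest to co-bound sites, genes nearest to DUX sites without OBOX4 and all genes. Genes of co-bound sites were left out of the DUX set. Numbers in brackets are the genes of co-bound sites that were tested. Double KO against WT mESCs in PlaB has the longest bar, with 28.9% lower.

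Gm5662 and Gm2016, 2C genes on chromosome 12, were called in 8 comparisons each. The Gm5662 site (chr12:88273622-88274648, DUX enrichment 8.11) lay 86 bases from its gene start. In mESCs Gm5662 stood at 5.83, 3.64 and 3.72 CPM at 0 h, 12.2, 20.2 and 19.9 at 12 h, and 32.7, 19.9 and 22.9 at 48 h, and both later groups lay above 0 h. The log2 fold change was 1.99 ± 0.268 at 12 h (adjusted p = 0.00277, edgeR) and 2.53 ± 0.269 at 48 h (adjusted p = 0.000201, edgeR). In 2C embryos it was at 165 and 173 CPM in scramble, 113 and 114 in embryos labelled Obox4 KD, 47.2 and 46.3 in Dux KD, 23.8 and 28 in double KD, and 47.3 and 65.4 with Obox4 mRNA. None of these groups overlapped, although the Obox4 mRNA libraries began just above Dux KD, and the fall in double KD was -2.71 ± 0.125 on the log2 scale (adjusted p = 1.23e-10, edgeR). The 12 h call was lost with replicate number as a block (2.03) and without 0 h or 12 h replicate 2 or 3 (1.87 to 1.88). The rise with Obox4 mRNA over double KD was 1.13 ± 0.121 (adjusted p = 3.85e-06, edgeR), and fell short of the fold without mRNA replicate 2 (0.88). In PlaB-treated cells it was at 166, 180 and 158 CPM in WT and 31.4, 33.6 and 89.7 in Obox4 KO, lower in each library although replicate 3 stood apart. This call was lost in the 5 fits without a WT library or without Obox4 KO replicate 1 or 2 (-1.45 to -1.75). It was at 0.0433 to 0.232 in Dux KO and 0 to 0.204 in double KO, at or near 0 in each.

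Gm2016 took a like course. Its site (chr12:87870766-87871003) had by far stronger OBOX4 than DUX enrichment and lay 3157 bases before its start. Its mean CPM rose from 3.5 at 0 h to 13 at 12 h and 21.6 at 48 h (log2 fold change 2.63 ± 0.271, adjusted p = 0.000167, edgeR). In 2C embryos it was at 104 and 96.4 CPM in scramble, 25.1 and 22.5 in Dux KD, 14.8 and 16.1 in double KD and 27.2 and 43.9 with Obox4 mRNA. With PlaB it fell from 113, 122 and 126 CPM in WT to 18.7, 21.6 and 66.5 in Obox4 KO, and was at 0.165 or less in each Dux KO and double KO library. Its calls at 12 h, with Obox4 mRNA and in Obox4 KO were lost in the same fits as those of Gm5662. Gm5662 and Gm2016 belong to a family of near-identical copies, so their counts may hold each other's reads.

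The Gm21818 site belonged to the second run on chromosome 13 (chr13:119597321-120282737, 5 sites with 5 genes). At 48 h of Obox4 induction, 4 of the 4 tested genes were higher (3.37% of all genes; 3 of 4 without any 1 library), and in Dux KO 4 of 5 were lower (4.7% of all genes). The run was picked after the values were seen. Gm21818, with a site 66 bases from its start, was at 1.63, 1.23 and 1.6 CPM at 0 h and 11.4, 8.82 and 9.09 at 48 h, groups far apart (log2 fold change 2.72 ± 0.174, adjusted p = 1.28e-05, edgeR). In 2C embryos it fell from 107 and 96.8 CPM in scramble to 50.1 and 50.7 in Dux KD and 25.4 and 30.4 in double KD, and Obox4 mRNA gave 51.7 and 72. The Dux KD fold lay at the threshold and the call was lost without Dux KD replicate 1 or scramble replicate 1 (-0.95), as was the call with Obox4 mRNA without mRNA replicate 2 (0.90). Treated with PlaB, it was at 56, 59 and 55.5 CPM in WT, 7.64, 6.5 and 16.6 in Obox4 KO, at most 0.0774 in Dux KO and 0 in each double KO library. Gm20767 and BC147527 followed with means of 151 and 32.1 CPM in WT, 47.6 and 2.58 in Obox4 KO, and 0 in double KO. The Obox4 KO call was made for BC147527 (log2 fold change -3.65 ± 0.538, adjusted p = 0.000759, edgeR) and missed for Gm20767 (adjusted p = 0.0142, edgeR).

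Genes on the satellite followed the satellite. Gm10718, Gm10800, Gm21738, Gm10722 and Gm11168 are predicted genes inside GSAT_MM arrays, and their counts may be those of the repeat. Gm10800 was at 1.06e+03 and 877 CPM in scramble 2C embryos and at 330 and 309 in double KD, without overlap (log2 fold change -1.60 ± 0.29, adjusted p = 0.000298, edgeR). With Obox4 mRNA it was at 424 and 1.13e+03, both above double KD but wide apart, and that call was lost with DESeq2, without mRNA replicate 2 (0.41) and without either double KD library. Under PlaB it was at 190, 205 and 212 CPM in WT, 33.1, 31.6 and 68.9 in Obox4 KO, 8.14, 7.57 and 8.28 in Dux KO and 14.1, 15.8 and 12.1 in double KO, all below WT (log2 fold changes -2.18, -4.66 and -3.84). In mESCs under induction it stayed at 0.207 to 1.39 CPM and was not called.

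Rimklb, an enzyme gene of the ATP-grasp ligase family, was called in 5 comparisons, all in mESCs. It rose from 43, 45.8 and 39.1 CPM at 0 h to 103, 124 and 128 at 12 h and 246, 209 and 211 at 48 h, with no overlap (log2 fold changes 1.47 ± 0.119 and 2.38 ± 0.122, adjusted p = 0.00014 and 4.65e-06, edgeR). In PlaB-treated cells it was at 40.7, 41.3 and 43.6 CPM in WT, 19.3, 20.1 and 20.6 in Obox4 KO, 15.2, 15.2 and 13.2 in Dux KO, and 10.3, 11.7 and 16 in double KO. In 2C embryos it went from 238 and 255 CPM in scramble to 169 and 175 in double KD, a fall that passed the p threshold but not the fold (log2 fold change -0.52 ± 0.0712, adjusted p = 1.94e-05, edgeR).

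Lama1, which encodes a laminin chain of the basement membrane, had a site 46 bases from its start. In 2C embryos it was at 7.04 and 7.85 CPM in scramble, 3.63 and 2.53 in embryos labelled Obox4 KD, 6.8 and 6.72 in Dux KD and 3.07 and 2.36 in double KD. It was thus called lower in the embryos labelled Obox4 KD (log2 fold change -1.27 ± 0.211, adjusted p = 0.00211, edgeR) and in double KD against Dux KD (-1.30 ± 0.208, adjusted p = 0.000702, edgeR), at a low level. The first call was lost without Obox4 KD replicate 2 (-1.03) and without either scramble library (-1.35 and -1.19), and the second without double KD replicate 2 (-1.15). With PlaB, Lama1 fell from 133, 132 and 130 CPM in WT to 26.3, 27.7 and 54.3 in Obox4 KO and 45.7, 42.2 and 40.9 in Dux KO, and stood at 70, 68.1 and 98.8 in double KO. Under induction it went from 389, 405 and 387 CPM to 189, 210 and 222 at 48 h (log2 fold change -0.93 ± 0.109, short of the fold threshold).

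Some other genes of the sites rose when both factors were reduced, but the share of genes that rose was not far above that of all genes. It was 10.4% against 8.42% in double KD embryos, and 4.22% against 9.25% in PlaB-treated double KO cells. The genes described next are single examples. Bbs10, a chaperonin-like gene that acts in assembly of the ciliary BBSome complex, was at 0.734 and 1.07 CPM in scramble 2C embryos, 3.04 and 2.04 in Dux KD, 6.47 and 4.59 in double KD and 2.29 and 2.23 with Obox4 mRNA. It was higher in double KD (log2 fold change 2.64 ± 0.297, adjusted p = 2.14e-06, edgeR) and fell again with the mRNA (-1.30 ± 0.251, adjusted p = 0.000872, edgeR). Zfp934, a zinc finger gene, went from 2.81 and 2.96 to 10.9 and 9.7 CPM in double KD and to 5.46 and 4.42 with the mRNA. The calls with the mRNA were lost without double KD replicate 1 (-1.01 for Bbs10 and -0.97 for Zfp934), and that of Zfp934 also without mRNA replicate 2 (-0.91). Tbc1d2, a Rab GTPase-activating gene, was at 2.78 and 2.67 CPM in scramble and 9.05 and 8.72 in double KD embryos. In PlaB-treated cells it was at 15.6, 12.6 and 12.5 CPM in WT, 17.5, 16.6 and 18.6 in Dux KO and 59.2, 53.2 and 68.6 in double KO, far above the rest (log2 fold change against WT 2.15 ± 0.185, adjusted p = 2.6e-06, edgeR).

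The run on chromosome 4 (chr4:146239551-147808980) held 9 sites in a cluster of zinc finger genes, with 8 nearest genes. In double KO cells 7 of the 8 were lower than in WT (8.79% of all genes; median log2 fold change -1.60) and 6 of 8 lower than in Dux KO (2% of all genes; -1.53). Without 1 library these became 4 to 6 against WT, 4 against Dux KO without any 1 Dux KO library and 5 to 6 without any 1 double KO library, with medians from -1.28 to -1.73. The run was picked after the values were seen. None was called in Obox4 KO or in Dux KO against WT, where the median log2 fold changes of the 8 genes were -0.75 and -0.12. Gm21411, with a DUX enrichment of 14.0 at its site, was at 33.1, 32.5 and 26 CPM in WT, 19.4, 20.1 and 13.8 in Obox4 KO, 29.1, 27.6 and 28.1 in Dux KO and 11.5, 11.9 and 5.59 in double KO. Double KO lay below the 3 other groups (log2 fold change against WT -1.63 ± 0.239, adjusted p = 0.000174, edgeR). All 9 sites had H3K4me3 and H3K27ac in 3 of 3 untreated WT libraries. The zinc finger genes of the run are close relatives with similar sequences, and by its name Vmn2r-ps19 is not one of them.

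**Figure D5:**
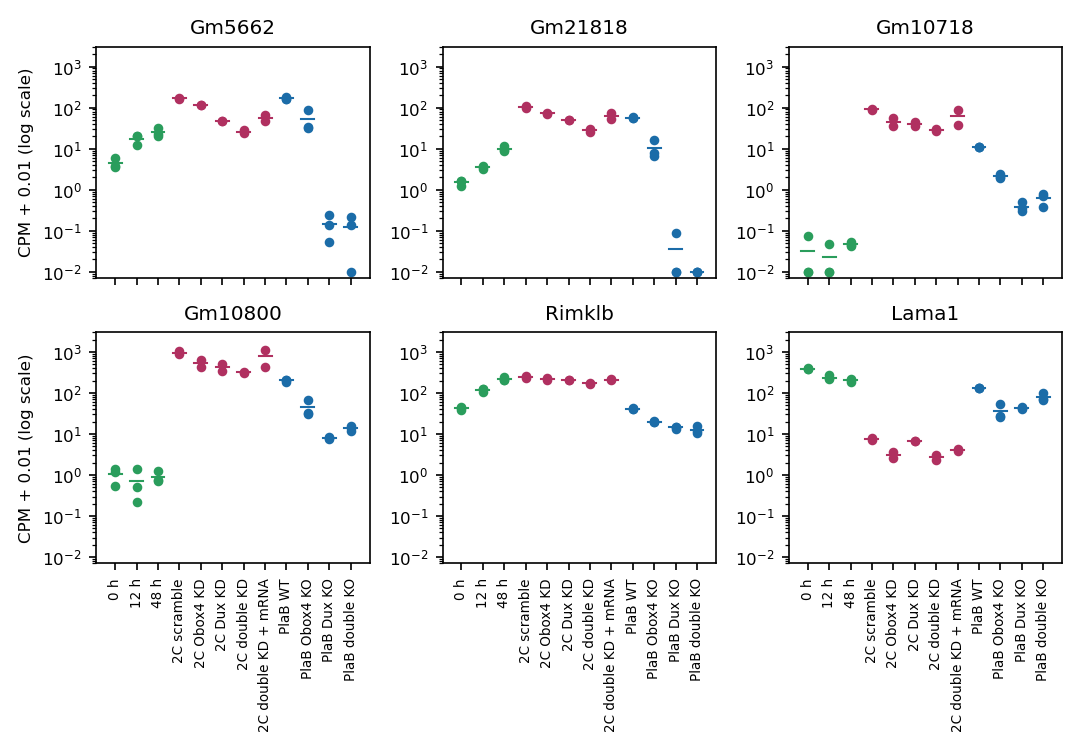
CPM (plus 0.01, log axis) of 6 genes nearest to co-bound sites. Points are libraries and lines group means, for mESCs under Obox4 induction (green), 2C embryos (red) and PlaB-treated mESCs (blue). Gm5662 and Gm21818 climb with induction and are near 0 in Dux KO and double KO cells, Gm10718 and Gm10800 fall in each knockout, and Lama1 is lower in double KD than in Dux KD embryos.

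A list of 76 2C genes was drawn up for this report with earlier results of these data known, and is not the 2C gene set of the study. Of these 76, 4 were genes of co-bound sites, namely Gm5662, Gm2016, Gm20767 and Dppa4, a chromatin factor of the 2C program. None of them was particular to co-bound sites. Gm5662 and Dppa4 were also nearest to an OBOX4 site without DUX, Gm20767 to a DUX site without OBOX4, and Gm2016 to both kinds. Each single-bound set was nearest to more genes of the list than the co-bound sites were. These sets were also larger, with 1093 DUX and 20460 OBOX4 sites against 320 co-bound sites, so the counts cannot be compared directly. Across the list 39 of 67 tested genes were higher at 48 h of induction (3.37% of all genes). In 2C embryos 1 of 74 was lower in those labelled Obox4 KD (0.182% of all genes), 28 of 74 in Dux KD (1.05%) and 35 of 74 in double KD (3.16%). In PlaB-treated cells 28 of 72 were lower in Obox4 KO (3.96%), 55 of 72 in Dux KO (4.7%) and 56 of 72 in double KO (8.79%). The nearest genes of DUX sites without OBOX4 included the Zscan4 genes, and those of OBOX4 sites without DUX included Dppa2, Dppa3, Arl4d and Zfp352. The study, which used its own set of 2C genes, names Dppa2, Sp110 and Zscan4d among those targeted by both factors. Here a site was given only its nearest gene start, and sites on MT2_Mm were left out. A gene's place in these lists therefore does not show that the other factor was absent from it.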

How the data were processed

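Peaks, RNA counts and repeat counts of the deposited files were used, all on GRCm38.p6. Per the study's methods and the submitters' processing notes, reads were demultiplexed with bcl2fastq 2.20 and trimmed with fastp 0.23.2. CUT&RUN reads were aligned with Bowtie2 2.4.1, and the authors called peaks per replicate with MACS3 3.0.0a6 in paired-end mode. The deposited peak lists give the fold enrichment over local background and the −log10 q of each peak. RNA reads were aligned with STAR 2.7.9a, and the authors counted them with featureCounts 2.0.1. The deposited gene counts leave out reads with several mapping places, and the deposited repeat tables share them as fractions, giving estimated counts that were rounded here. The blastomere tables were not used here.

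OBOX4 peaks of 3 replicates were merged and intervals held by at least 2 kept. A site lay on a repeat when its DUX summit did, on loci of the deposited repeat tables, with the LTR and LINE-1 class taken from the repeat name. The genome sequence was that of the GRCm38.p6 reference. A mark was counted where a peak of that library overlapped the site by 1 base. Genes were assigned by the nearest 5′ end within 50 kb. Tests used edgeR 4.0.16 in R 4.3.3 (TMM scaling, filterByExpr, quasi-likelihood test, Benjamini-Hochberg over all genes or all repeats), fitted over all groups of an experiment, and called at adjusted p of 0.01 and log2 fold change of 1. Tables were handled in Python 3.11.15 with pandas 2.3.3 and scipy 1.17.1. The fits were tested on simulated counts. DESeq2 1.42.0, RLE scaling, no filter on low counts, a replicate block, other site definitions and leaving out each library were tried as alternatives, and scaling repeats by the gene table and marks over the summit base were added after the data were seen.

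The members, gene lists and tests were chosen with earlier results of these data known. Named genes are the 20 genes of the sites called in the most comparisons, genes the study names at its binding results, the nearest genes of the 10 sites with the highest DUX enrichment, and up to 5 sites with changed marks and at the limits of the rule. Gene counts per library were 22470332 to 31504967 under induction, 26148176 to 69461986 in 2C embryos, 14283083 to 48837123 with PlaB and 53573946 to 104864947 in morulae. Per the study, 2C embryo libraries were independent pools of embryos, and the induction and CUT&RUN libraries were biological replicates. Whether the knockout libraries of a genotype came from 1 clone was not given in the sources used here, so their p-values may cover the spread within 1 line. Counts of near-identical gene copies are uncertain.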

Additional observations from a re-analysis of the deposited data

Results flagged for a closer look

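Tnfrsf19 and Phf11d changed in opposite directions when both factors were reduced in the 2 systems. In 2C embryos, double KD raised Tnfrsf19 by a log2 fold change of 1.81 (0.979 and 1.03 CPM in scramble, 4.41 and 2.52 in double KD) and Phf11d by 1.61 (3.4 and 3.45 against 10.4 and 10.6). In PlaB-treated mESCs, the double KO log2 fold change was -1.11 for Tnfrsf19 (23.2, 25 and 26.5 CPM in WT, 13.2, 10.4 and 11 in double KO) and -1.16 for Phf11d (41.8, 45 and 38.6 against 18.5, 26.9 and 9.87). In both genes each library of the treated group lay above its controls in embryos and below them in mESCs, and the difference between the 2 systems was not tested. The double KO calls were lost in 3 fits for Tnfrsf19 (-1.04 to -1.09) and 4 for Phf11d (-0.89 to -1.15) that left out 1 library, and the double KD call of Tnfrsf19 was lost without double KD replicate 1 (1.30). Embryos and stem cells also differ in cell type and in how the factors were removed, which cannot be told apart here.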

How the results depend on the processing

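Among the properties of the sites, 22 of 76 alternative values moved by more than the spread between libraries or the counting interval, and among counts of genes 50 of 144 moved by over 1.5 times. For the named genes and repeats with a call, 195 of 1506 alternative fits lost it, 24 of them with all libraries kept, and none changed direction. Repeats without a call are not in that count, and some of them changed sign when scaled by the gene table. The number of sites (320) fell to 180 when OBOX4 peaks needed a −log10 q of at least 10 and to 199 when DUX peaks did, and was 269 to 288 with 1 OBOX4 replicate left out. Within 1000 bases of a gene start lay 21.6% of the sites, and without 1 OBOX4 replicate 28.1 to 28.8% lay within 3000 bases, 18.2 to 19.4% on LTRs and 2.08 to 2.78% held the palindrome. The mean share of sites under H3K4me3 peaks in untreated WT cells (73.1%) became 75% with OBOX4 in all 3 replicates, 68.6% with any, 73.7% and 70% with the stricter OBOX4 and DUX peaks, 74.4% with at least 50% of the DUX peak covered, 68.4% with stricter mark peaks, 70.2% with 50% of the site under the mark, 70.4% at the summit base and 73 to 75.1% without 1 replicate. For H3K27ac (73.3%) the values were 68.7% with any OBOX4 replicate, 79.3% with stricter OBOX4 peaks, 56.6% with stricter mark peaks, 67.3% with 50% of the site covered, 68.3% at the summit and 72 to 76.1% without 1 replicate. For H3K27me3 (11.9%) they were 1.04% with stricter mark peaks, 8.23% with 50% covered, 8.75% at the summit and 10.6 to 13.3% without 1 replicate (stricter meaning a −log10 q of at least 10).

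Taking every gene with its start within 50 kb gave 8 calls at 12 h, 28 at 48 h, 38 in Dux KD, 98 in double KD, 11 in double KD against Dux KD, 51 with Obox4 mRNA, 56 in Obox4 KO, 78 in Dux KO, 138 in double KO and 46 in double KO against Dux KO, against 4, 9, 14, 33, 4, 16, 25, 27, 55 and 19, since more genes enter. Sites with OBOX4 in all 3 replicates gave 5 calls at 48 h, 1 in the embryos labelled Obox4 KD and 16 in Obox4 KO, and a 10 kb limit gave 16 in Obox4 KO. DESeq2 gave 1 in the embryos labelled Obox4 KD, 9 in Dux KD and 5 in morulae, and no filter on low counts gave 4 in the embryos labelled Obox4 KD and 15 in morulae. Without 1 library the counts were 1 to 5 at 12 h (1 without 0 h or 12 h replicate 2 or 3), 6 to 7 at 48 h, 0 to 3 in the embryos labelled Obox4 KD (0 without Obox4 KD replicate 2, 1 higher without scramble replicate 1, and 1 lower without scramble replicate 2), 4 to 8 in Dux KD, 27 to 32 in double KD, 1 to 2 in double KD against Dux KD, 9 to 21 with Obox4 mRNA (9 without double KD replicate 1, 10 without mRNA replicate 2), 15 to 34 in Obox4 KO, 21 to 22 in Dux KO, 42 to 54 in double KO, 10 to 22 in double KO against Dux KO, and 2 to 57 in morulae (57 without double KD replicate 1, 6 without replicate 2, 2 without either scramble library). A lone library left in a group is assumed to vary like the others.

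Replicate numbers did not pair the samples. The correlation of deviations of same-numbered libraries ran from -0.414 to 0.38, and in no comparison was it over 0.1 for every pair. With the replicate number as a block, the calls went from 4 to 1 at 12 h (the calls of Gm5662, Gm2016 and Gm21818 lost) and from 2 to 1 in the embryos labelled Obox4 KD (Gm21738 lost), and the other 10 counts stayed within 1.5 times. The block also lost the Gm10800 and Gm10722 calls in Dux KD, the D13Ertd608e and Gm33466 calls at 48 h, the Bbs10 call in double KD against Dux KD and the Gm11168 call in Obox4 KO. The blastomere comparison was not run. The peak lists hold no read totals, so the depth behind each peak is unknown.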
